A study of Mus musculus with 9 samples.

Results

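The 8 cadherin loci described here are Cdh15, Cdh2, Cdh4, Cdh5, Cdh6, Cdh11, Cdh13 and Cdh23, each taken as the gene body with 10 kb on either side (mouse build mm10, GENCODE M21), and they were read for binding of the muscle transcription factor MyoD1. They are 8 of 21924 protein-coding genes. Of 116126 peaks in 6 peak lists, 206 overlapped these loci by at least 1 bp. Of these, 75 had their maximum within 50 bp of a coding exon of Cdh23 and are described apart, which left 131 peaks. Peaks of the 6 lists that overlapped or touched were merged, which gave 72 regions at the 8 loci out of 58268 in all.

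The assay was CUT and RUN, where an antibody guides a nuclease to a chromatin protein and the released DNA is sequenced. The cells were a line derived from C2C12, a mouse skeletal muscle myoblast line, in which MyoD1 carried a 3xF-Halo tag at its own locus and a further 3xF-Halo-MyoD1 gene could be switched on with doxycycline (dox). All cultures were moved to differentiation medium for 6 h. Dox was left out of 3 cultures (no dox) and added to 3 (+dox), each a biological replicate, and the anti-Flag antibody bound tagged MyoD1 of both sources. The line is 1 clone, so other clones of the same design were not sampled. The untagged wild-type libraries were not analysed here, so no background from cells without the tag stands beside any value.

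Cadherins are calcium-dependent adhesion proteins of the cell surface. The classical members hold neighbouring cells together through their extracellular repeats and are linked to actin by catenins on the inside. In skeletal muscle, M-cadherin (Cdh15) and N-cadherin (Cdh2) are known from contacts between myoblasts and from the satellite cell niche. R-cadherin (Cdh4) is a further classical type I member, VE-cadherin (Cdh5), K-cadherin (Cdh6) and OB-cadherin (Cdh11) are type II members known from endothelium, kidney and mesenchyme, and T-cadherin (Cdh13) is held in the membrane by a lipid anchor and has no cytoplasmic tail. Cadherin-23 (Cdh23) is a very long atypical cadherin that forms the tip link of inner ear hair cells with protocadherin-15. MyoD1 is a basic helix-loop-helix factor that binds E-boxes, and CAGCTG is the E-box it is best known for.

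The lists differed more in length than in depth. No dox replicates 1 to 3 held 9389, 13877 and 13403 peaks at 4297000, 4429000 and 4667000 alignments. The +dox replicates 1 to 3 held 12536, 13260 and 53661 peaks at 2868000, 3597000 and 8030000 alignments. The list of +dox replicate 3 was the longest, and the lowest total signal it contained was 336, against 837 and 904 in the other +dox lists. No dox replicate 3 had nearly the same floor, 354, in a list of ordinary length, and no dox replicates 1 and 2 had 861 and 869. Of 5 muscle regulator loci looked at for the myoblast label (Myod1, Myog, Myf5, Mymk and Ckm), Myod1 and Mymk had a region called in all 6 libraries. All 5 had a peak in at least 1 library, as 71.8% of protein-coding genes did, while Ckm had 0 peaks in every no dox library and Myog had 0 in +dox replicates 1 and 2.

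The sequences under the main regions are given here because the results below turn on them. Each window is 150 bases long, lies around the median position of the maximum signal, and is printed from the plus strand of mm10 with every CAGCTG in capitals. The Cdh15 window lies at chr8:122850701-122850850 in an intron of Cdh15, and the Cdh13 window at chr8:118284451-118284600 in an intron of Cdh13. The Cdh23 windows lie at chr10:60350876-60351025 (window a), chr10:60374201-60374350 (window b), chr10:60379501-60379650 (window c) and chr10:60400601-60400750 (window d), all in introns of Cdh23, with window a also inside Vsir and window d inside Gm17455, a pair of genes that overlap Cdh23.
Cdh15: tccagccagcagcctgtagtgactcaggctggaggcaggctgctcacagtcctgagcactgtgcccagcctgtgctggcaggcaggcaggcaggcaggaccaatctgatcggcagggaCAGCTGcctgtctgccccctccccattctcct
Cdh13: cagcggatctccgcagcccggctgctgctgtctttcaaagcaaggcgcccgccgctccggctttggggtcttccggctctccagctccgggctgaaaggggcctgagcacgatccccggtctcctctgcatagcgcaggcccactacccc
Cdh23 a: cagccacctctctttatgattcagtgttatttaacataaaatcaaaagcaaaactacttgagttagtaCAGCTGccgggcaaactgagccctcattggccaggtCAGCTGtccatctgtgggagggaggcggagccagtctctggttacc
Cdh23 b: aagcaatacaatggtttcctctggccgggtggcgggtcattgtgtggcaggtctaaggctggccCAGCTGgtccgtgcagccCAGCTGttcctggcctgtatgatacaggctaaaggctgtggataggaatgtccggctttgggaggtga
Cdh23 c: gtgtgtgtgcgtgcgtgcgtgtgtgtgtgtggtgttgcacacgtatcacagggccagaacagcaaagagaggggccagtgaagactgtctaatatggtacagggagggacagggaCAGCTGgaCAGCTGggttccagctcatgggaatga
Cdh23 d: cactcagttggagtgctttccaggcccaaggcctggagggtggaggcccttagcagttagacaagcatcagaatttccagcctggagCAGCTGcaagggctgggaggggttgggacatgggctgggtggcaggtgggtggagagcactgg
Windows a, b and c each held 2 copies of CAGCTG, the Cdh15 window and window d held 1 each, and the Cdh13 window held 0. A match is a description of the letters and not a measured site. No window is printed for Cdh2, Cdh4, Cdh5, Cdh6 or Cdh11. The RefSeq promoter table on the same assembly matched Cdh15, Cdh6 and Cdh23, and none of these 3 promoters, taken from 250 bases before to 50 after the start, held CAGCTG, which 16.3% of all 32851 promoters did.

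The first comparison asks whether more peaks lay at the cadherin loci when MyoD1 was raised. With the Cdh23 coding-exon peaks kept apart, the 8 loci together had 13, 12 and 13 peaks without dox and 15, 14 and 64 with dox. Every +dox library was above every no dox library, by 1 peak at the nearest pair, and +dox replicate 3 stood far above the rest. The means were 12.7 ± 0.577 and 31 ± 28.6 peaks (SD, n = 3 each), a difference of 18.3 peaks that is smaller than the spread of the +dox libraries (exact two-sided permutation p = 0.1, the smallest that 3 against 3 libraries can give, and 1 after Benjamini-Hochberg adjustment over 13 tests). Without +dox replicate 3 the difference was 1.83 peaks. With Cdh23 left out it was 10 peaks (exact permutation p = 0.4). With merged regions counted in place of peaks it was 17.3 (exact permutation p = 0.7). In neither setting was every +dox library above every no dox library. In lists shortened to the 9389 highest peaks the counts were 13, 9 and 11 without dox and 11, 9 and 13 with dox, with a difference of 0. Relative to list length there were 1.39, 0.865 and 0.970 cadherin peaks per 1000 peaks without dox and 1.20, 1.06 and 1.19 with dox, and the groups overlapped (exact permutation p = 0.7, adjusted p = 1).

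**Figure D1:**
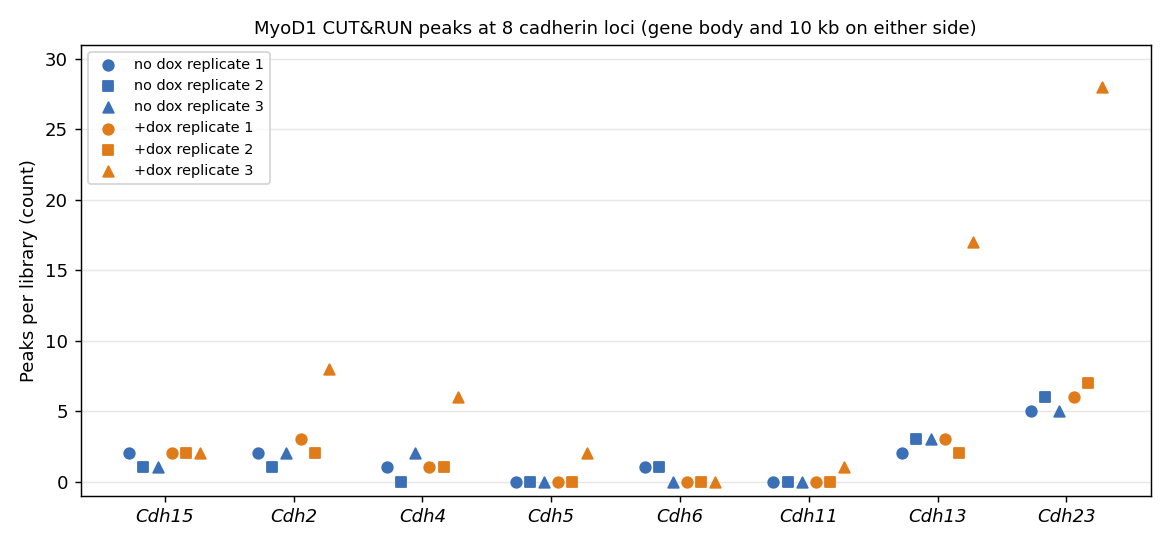
Number of peaks per library (vertical axis, count) at each of the 8 loci (horizontal axis), with no dox libraries in blue, +dox libraries in orange and one symbol per replicate number. Coding-exon peaks of Cdh23 are left out, and the points that stand apart, 28 peaks at Cdh23 and 17 at Cdh13, belong to +dox replicate 3.

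Cdh15, which codes for M-cadherin, had few peaks, and with the Cdh23 coding-exon peaks kept apart it had the highest signal of the 8 loci in every library. It had 2, 1 and 1 peaks without dox and 2 peaks in each +dox library, so the groups met at 2 (exact permutation p = 0.4, adjusted p = 1). All but 1 of these peaks lay in 1 region of 5550 bp, chr8:122847651-122853200, which covers the Cdh15 start site and was called in all 6 libraries. Its maximum lay between 2809 and 2859 bp downstream of the gene start in every library. The place of the maximum thus differed by no more than 50 bp across libraries.

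The maximum signal of the Cdh15 region was 81.9, 84.9 and 19.3 CPM (alignments scaled to library size) without dox and 224.9, 151.3 and 73.7 CPM with dox. In CPM the groups overlapped, since no dox replicates 1 and 2 were above +dox replicate 3. Ranked by maximum signal within its own list, where 100 is the highest peak, the region stood at percentile 99.6, 99.4 and 96.9 without dox and at 99.7, 99.6 and 99.8 with dox. In percentiles all +dox libraries were above all no dox libraries, by 1.05 points in the mean, most of it from no dox replicate 3. Of the 4837 regions called in all 6 libraries, 23.7% had every +dox percentile above every no dox percentile, so the Cdh15 order was shared by 1146 regions. Ranked only among those 4837 regions, so that list length played no part, the Cdh15 groups overlapped, and 3.56% of regions had all +dox libraries higher. By mean percentile over the 6 libraries the Cdh15 region was number 68 of the 4837. The region held 10 copies of CAGCTG and 1 match to TGANTCA, the letters of the AP-1 motif. The study named Cdh15 and Cdh23 from these cells, so their order between groups is no independent evidence of a direction. A second region, within the gene body of Cdh15, was called in +dox replicate 3 alone with a maximum of 12 alignments.

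**Figure D2:**
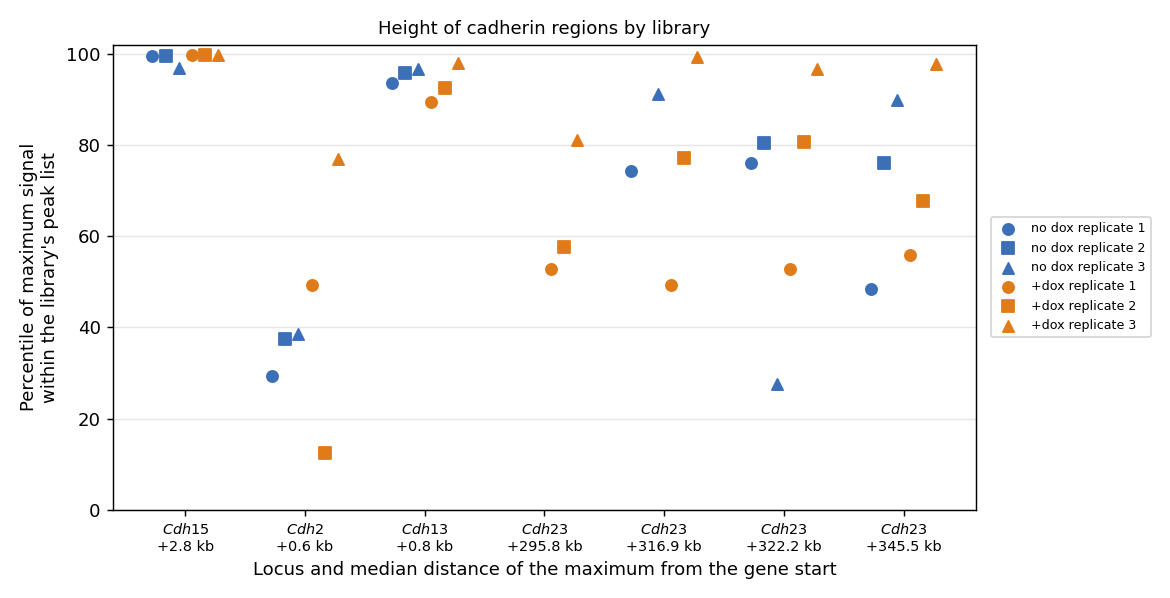
Percentile of maximum signal within the library's own list (vertical axis, 100 is the highest peak) at 7 cadherin regions (horizontal axis, with the median distance in kb of the maximum from the gene start), with no dox libraries in blue and +dox libraries in orange. The Cdh15 and Cdh13 regions sit at or above 89.5 in every library, the Cdh2 region between 12.5 and 77.0, and the Cdh23 region at +295.8 kb has points for the +dox libraries alone.

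Cdh2, the N-cadherin gene, had a low peak in the merged region around its start site in every library. It had 2, 1 and 2 peaks without dox and 3, 2 and 8 with dox, and the groups met at 2 (exact permutation p = 0.3, adjusted p = 1). The region over the start, chr18:16806551-16810100, was called in all 6 libraries at percentiles 29.3, 37.5 and 38.6 without dox and 49.3, 12.5 and 77.0 with dox. The +dox libraries lay on both sides of the no dox libraries. Relative to the gene start, the maximum in this region lay from -379 bp in no dox replicate 3 to 2321 bp in +dox replicate 2. With maxima of 2.57 to 8.37 CPM it was number 4670 of the 4837 regions called in all 6 libraries. It held no CAGCTG. Of the other 6 regions at Cdh2, 5 were called in +dox replicate 3 alone, and their maxima reached 128 alignments. The remaining one, 28345 bp from the nearest coding start of Cdh2, was called in no dox replicate 3 and +dox replicate 3, at percentiles 47.9 and 97.0.

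Cdh4, the R-cadherin gene, had 1, 0 and 2 peaks without dox and 1, 1 and 6 with dox (exact permutation p = 0.7, adjusted p = 1). Its 10 regions included none that more than 2 libraries shared. The region over the start site, chr2:179442201-179443800, was called in no dox replicate 1 and +dox replicate 2 at percentiles 13.6 and 2.26, near the bottom of both lists. The groups overlapped, and without +dox replicate 3 the difference in peak number was 0.

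The type II members had next to no peaks. Cdh5, the endothelial VE-cadherin gene, had 0 peaks in 5 libraries and 2 in +dox replicate 3, at percentiles 54.0 and 16.7 of that list. Cdh11, the mesenchymal OB-cadherin gene, had 1 peak, in +dox replicate 3, at percentile 31.8. Cdh6, the K-cadherin gene, had 1, 1 and 0 peaks without dox and 0 in all +dox libraries, and, with the Cdh23 exon peaks kept apart, was the only one of the 8 with a higher mean without dox (exact permutation p = 0.4, adjusted p = 1). The Cdh6 peaks lay in different regions, one at percentile 13.6 inside the gene and one at 3.61 over its start site. All of these peaks had maxima of 8 to 14 alignments, so each call rested on few reads.

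Cdh13, the T-cadherin gene and the longest of the 8 at 1041.2 kb, had its highest signal beside the start and scattered peaks further on. It had 2, 3 and 3 peaks without dox and 3, 2 and 17 with dox (exact permutation p = 0.9, adjusted p = 1). The region chr8:118283301-118287700, 4400 bp long and covering the start, was called in all 6 libraries with its maximum 742 to 992 bp downstream of the gene start. Its maximum was 21.9, 27.1 and 18.9 CPM without dox and 33.5, 31.7 and 24.9 CPM with dox. Its percentiles were 93.5, 95.7 and 96.8 without dox and 89.5, 92.4 and 98.0 with dox. The groups overlapped in CPM and in percentile, and the mean fell by 2.03 percentile points with dox while the mean in CPM was higher. Of all regions called in all 6 libraries, 0.0413% had every +dox percentile below every no dox percentile, and 0 of the 5 cadherin regions did. Ranked among the shared regions alone, all +dox libraries were below all no dox libraries at Cdh13, by 11.0 points in the mean, an order that 4.45% of the 4837 regions had, so the direction at Cdh13 depended on the scale. This start region was number 545 of 4837 by mean percentile and held 3 copies of CAGCTG, none of them within 100 bp of the maximum.

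Further along Cdh13, a region with its maximum 29917 to 29992 bp from the gene start, chr8:118313201-118313900, was called in no dox replicate 2 and in +dox replicates 1 and 3, at percentiles 44.9, 45.3 and 64.6. Of the 17 Cdh13 regions, 14 were called in +dox replicate 3 alone. These lay across the gene at percentiles from 16.7 to 87.4 of that list.

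Cdh23 had the most peaks even without those at its coding exons. The numbers were 5, 6 and 5 without dox and 6, 7 and 28 with dox (exact permutation p = 0.2, adjusted p = 1). The groups met at 6, and without +dox replicate 3 the difference was 1.17 peaks. Mean peaks per 100 kb of locus were 1.29 without dox and 3.30 with dox, below the 3.38 and 5.07 at the shorter Cdh15 locus. The peaks that libraries shared lay in the 3′ part of the gene, 295.8 to 349.7 kb from its start, where 2 other genes on the opposite strand lie inside it: Vsir, which codes for an immune checkpoint receptor, and the gene model Gm17455. Psap, the prosaposin gene, ends just beyond the 3′ end of Cdh23 and fills that part of the 10 kb flank. A peak there cannot be assigned to Cdh23 or to these genes from its position.

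Both Cdh23 regions called in all 6 libraries lay in this stretch. Region a, chr10:60350401-60353300, lay in an intron of Cdh23 and inside Vsir, 2528 bp from the nearest Vsir start, at percentiles 48.5, 76.0 and 89.8 without dox and 55.8, 67.7 and 97.8 with dox. Region b, chr10:60373551-60375000, lay in an intron of Cdh23 past the 3′ end of Vsir, at 76.0, 80.4 and 27.5 without dox and 52.8, 80.6 and 96.6 with dox. In both the groups overlapped, and the lowest value was a no dox one. The maxima of region a lay near a pair of positions about 1 kb apart, 345.5 to 345.6 kb from the Cdh23 start in 4 libraries and 344.4 to 344.6 kb in replicate 3 of both groups.

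Region c, chr10:60378651-60380400, was called in 5 libraries, at percentiles 74.2 and 91.2 in no dox replicates 1 and 3 and at 49.3, 77.1 and 99.2 with dox. In no dox replicate 2 the peak at this place had its maximum at a coding exon and was among those kept apart. The +dox values again spanned the no dox values. In CPM the maximum reached 40.3 in +dox replicate 3, the highest of any Cdh23 peak away from a coding exon.

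One region was called in 3 of 3 +dox libraries and 0 of 3 no dox libraries. This region d, chr10:60400301-60401000, lay in an intron of Cdh23, with its centre 106 bp from the start of a Gm17455 transcript. It had maxima of 9.07, 8.34 and 4.23 CPM, which is 26, 30 and 34 alignments, at percentiles 52.8, 57.6 and 81.1. The value was thus in the middle of the lists or above it. Among all 58268 regions, 1.09% had this pattern, and among the 72 cadherin regions 1.39%. The opposite pattern, 3 no dox and 0 +dox libraries, was found in 0 of the 72 cadherin regions and in 5 regions of the genome.

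At the Vsir starts inside Cdh23, a region at chr10:60346251-60348000 was called in no dox replicate 3 and in all 3 +dox libraries, at percentile 27.5 without dox and 9.05, 19.0 and 77.0 with dox. The next region, chr10:60348701-60349900, was called in no dox replicate 3 and +dox replicates 2 and 3, at percentiles 61.2, 6.48 and 87.4. Both thus had peaks in replicate 3 of each group. No peak away from the coding exons lay over the start of a protein-coding Cdh23 transcript in any library. Starts of other Cdh23 transcripts did lie inside regions away from the coding exons. The centre of region c was 666 bp from such a start. The centre of chr10:60687051-60687850, called in no dox replicate 1 alone with 12 alignments, was 194 bp from another. The nearest maxima to the gene start were at 4.065 kb along the gene in +dox replicate 3, with 8 alignments. On the upstream side the nearest was at -5.035 kb in no dox replicate 2, with 10 alignments. The 3 regions inside Psap were called in +dox replicate 3 alone with 6 to 10 alignments.

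**Figure D3:**
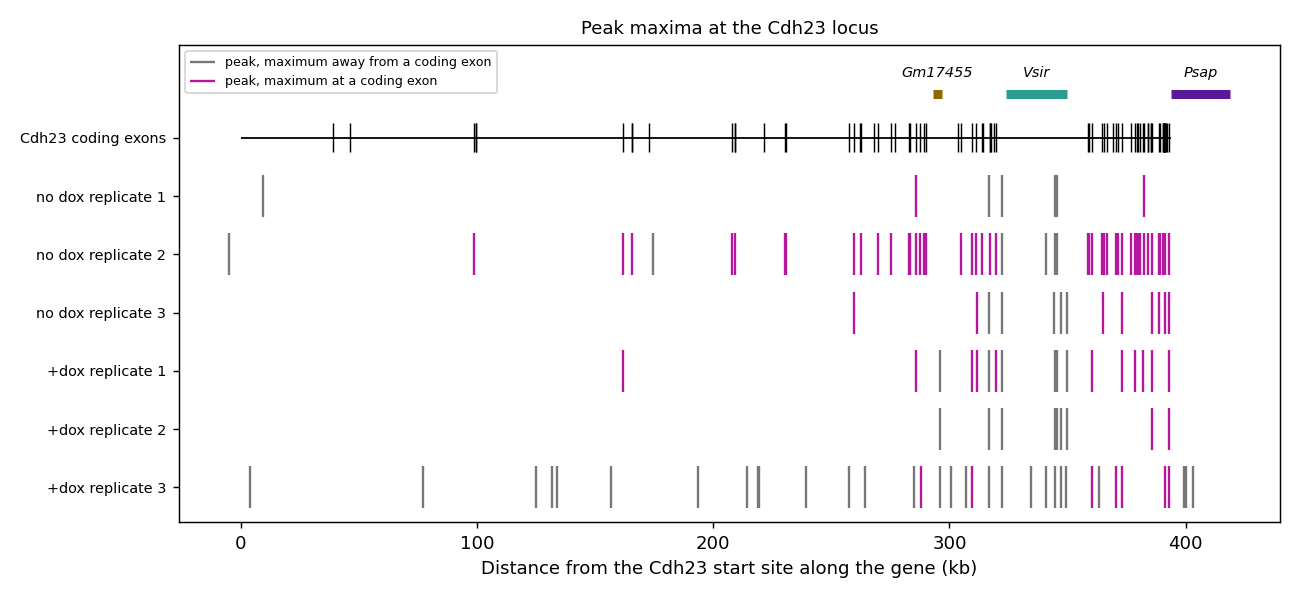
Position of the maximum of every peak at the Cdh23 locus (horizontal axis, kb from the Cdh23 start site along the gene) in each of the 6 libraries (rows), with maxima within 50 bp of a coding exon in magenta and all others in grey, and coding exons and overlapping or neighbouring genes on top. No dox replicate 2 has 45 magenta lines that follow the coding exons, and the grey lines that libraries share lie between 295.8 and 349.7 kb.

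The coding exons of Cdh23 were set apart because of no dox replicate 2. Cdh23 has 70 coding exons, which with 50 bp on either side make up 4.33% of the gene's length. The number of peaks with their maximum there was 2, 45 and 8 without dox and 11, 2 and 7 with dox. No other library had more than 11. In that library 88.2% of the 51 peaks at the locus were of this kind (95% Wilson interval 76.6 to 94.5, covering counting error only), while the share in the other libraries lay between 20% and 64.7%.

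These exon peaks were also far higher in no dox replicate 2. Their median maximum there was 68.6 CPM, or 304 alignments, the highest was 451 CPM, and 40 of the 45 stood above percentile 90 of the list. The medians in the other libraries were 2.79 and 4.71 CPM without dox and 9.76, 2.78 and 1.25 CPM with dox, and none of their exon peaks stood above percentile 90. The peaks of no dox replicate 2 away from the exons had a median of 5.19 CPM, within the 1.25 to 8.72 CPM of the other libraries, so the high values in that library were those at coding exons. They were narrow, with a median width of 400 bp, against 675 bp for its other Cdh23 peaks.

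Merged over the libraries, the exon peaks formed 43 regions. All 43 had a peak in no dox replicate 2 and 26 had one in that library alone. No exon region of another library lay outside those of no dox replicate 2. Among the 7862 genes with at least 10 coding exons, Cdh23 had the most exons with a maximum in no dox replicate 2 (45, the next gene being Plec with 12), in no dox replicate 3 (9, then Baiap3 with 5) and in +dox replicate 1 (11, then Cacna1a with 4), and stood 22nd, 15th and 12th in no dox replicate 1, +dox replicate 2 and +dox replicate 3. At the other 7 cadherin loci a maximum at a coding exon was found 3 times, once each at Cdh15, Cdh4 and Cdh5, and each time in +dox replicate 3. What gave rise to this signal was not tested, and the lists do not show whether these exon peaks are MyoD1 binding. With the exon peaks counted in, the 8 loci had 15, 57 and 21 peaks without dox and 26, 16 and 71 with dox, and the order of the groups was lost. At Cdh23 itself the mean over all peaks was then 23.7 without dox and 20.3 with dox.

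**Figure D4:**
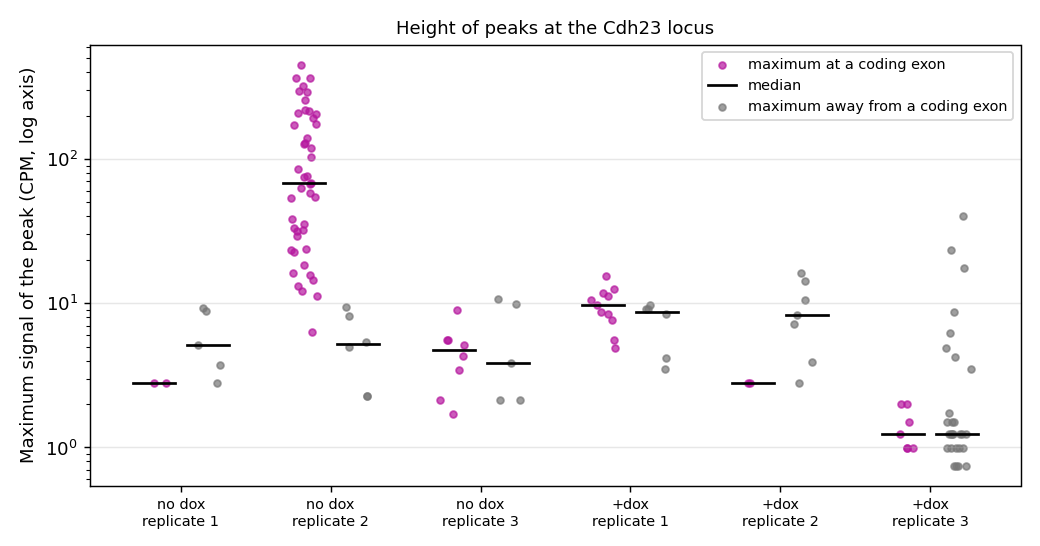
Maximum signal (vertical axis, CPM, log scale) of each peak at the Cdh23 locus in each library (horizontal axis), split into maxima at a coding exon (magenta) and away from one (grey), with black bars at the medians. Exon peaks of no dox replicate 2 have a median of 68.6 CPM, while the medians of all other sets lie between 1.25 and 9.76 CPM.

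Most cadherin regions were calls of a single library. Of the 72 regions, 50 were called in +dox replicate 3 alone, which is 69.4% against 59.2% of all regions in the genome. Regions called in all 6 libraries numbered 5, which is 6.94% against 8.3% of all regions. Both shares were near those of all regions. With a region kept where at least 2 of 3 libraries of a condition had a peak, the loci held 7 regions without dox and 11 with dox. Of the 11, 4 overlapped no such region of the other condition, against 38.5% of all 13902 +dox regions, and these lay at the Vsir starts (2 regions), at Gm17455 and in Cdh13. Of the 7, 0 lacked a +dox counterpart, against 9.96% of all 9550 no dox regions. When the other condition was required to have no peak in any library, only region d remained of the 4, and without +dox replicate 3 there were 2.

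Differences in the height of cadherin peaks with dox were smaller than the spread between libraries. The median percentile of the peaks at the 8 loci was 48.5, 58.4 and 55.3 without dox and 49.3, 62.7 and 44.8 with dox (exact permutation p = 0.9, adjusted p = 1). Over the 5 regions called in all 6 libraries, the mean percentile was 69.4, 77.8 and 69.9 without dox and 69.4, 70.6 and 93.8 with dox, a difference of 5.57 points (exact permutation p = 0.6, adjusted p = 1). Both ranges overlapped, and the high value of the second came from +dox replicate 3, without which the difference turned to -5.53 points. The median difference of the 5 regions was 2.33 points and that of all 4837 regions 6.40 points. In +dox replicate 3 the percentiles of shared regions also rise with the length of its list, and among the shared regions alone the mean difference at the 5 was -0.137 points.

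The letters CAGCTG lay in or within 100 bp of 9 of 13, 8 of 12 and 11 of 13 cadherin peaks without dox, and of 11 of 15, 11 of 14 and 45 of 64 with dox. Over all peaks of the same lists the share was 67.8, 67.1 and 73.4% without dox and 57.8, 64.3 and 63.8% with dox. The shares of cadherin peaks were 73.5% ± 9.71 and 74.1% ± 4.18 (SD, n = 3 each), with overlapping groups (exact permutation p = 0.9, adjusted p = 1). The 95% Wilson intervals of single libraries ran from 39.1 at the lowest to 95.7 at the highest, so these counts are too small to show a difference of the size seen. Within the merged regions, CAGCTG was found in 62.5% of the 72 cadherin regions and 60.7% of all regions, and in 4 of the 5 cadherin regions called in all 6 libraries, against 84.5% of all such regions. TGANTCA was found in 41.7% of cadherin regions and 34.3% of all regions, and in all 5 cadherin regions called in all 6 libraries, against 48.7%. These 5 regions were 1450 to 5550 bp wide with 1 match each. Wider regions have more room for a match, and widths were not matched here. Motifs were searched on the plus strand, and each pattern reads the same on the other strand.

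At the level of genes, 4 of the 8 cadherins (Cdh15, Cdh2, Cdh13 and Cdh23) had a region called in all 6 libraries, against 21.7% of all protein-coding genes. The cadherins are longer, with a median of 187 kb against 17.4 kb, and how much of the difference goes with length was not tested. Among 24 other cadherin genes, 2 had such a region, the giant cadherins Dchs1 and Fat1, which take part in planar polarity. Among 16 catenins and adherens junction partners there were 5. These were Jup (plakoglobin), Arvcf (a relative of delta-catenin), Vcl (vinculin, which links junctions to actin), Tjp1 (ZO-1) and Nectin2 (an adhesion molecule that works beside cadherins). The highest mean percentile of such a region was 98.3 at Tjp1, 94.6 at Nectin2, 93.8 at Jup, 88.4 at Vcl and 32.8 at Arvcf. Of 5 genes whose products work with cadherin-23 in hair cells, Pcdh15, Ush1c, Ush1g, Myo7a and Cib2, 0 had a region called in all 6 libraries. All 5 had a peak in at least 1 library, against 71.8% of protein-coding genes, and the peaks at Ush1c came from +dox replicate 3 alone.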

How the data were processed

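CUT and RUN libraries of 6 cultures were used, 3 no dox and 3 +dox. The authors processed reads with the nf-core/cutandrun pipeline on mm10, removed blacklisted regions, scaled coverage to CPM, and called peaks in each library with SEACR in relaxed mode. A control library or numeric threshold for calling is not given in the sources used here. The deposited lists give for each peak a total signal and a maximum signal, in CPM coverage. Intervals were checked against GRCm38, the assembly behind mm10, and 0 peaks ended past a chromosome end. The alignments behind a list were recovered from the step between maximum signals, of which 100% were whole multiples.

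All else was computed here. A peak belonged to a locus when it overlapped the GENCODE M21 gene body with 10 kb on either side by 1 bp. A peak at Cdh23 with its maximum within 50 bp of a coding exon was kept apart in all libraries. Overlapping or touching peaks were merged into regions, and a consensus asked for 2 of 3 libraries. Peak height is the rank of the maximum signal in its own list, as a percentile. CAGCTG and TGANTCA were searched in peaks with 100 bp on either side and in regions as they are. The search read the plus strand, and each pattern is its own reverse complement. Sequences came from the RefSeq copy of the assembly. Differences in group means were tested by exact two-sided permutation over 20 assignments, where the smallest p is 0.1, with Benjamini-Hochberg adjustment over 13 tests. Each p-value is the share of assignments of these cultures with a mean difference at least as large as the one seen. Steps were tested on simulated lists.

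Regions were to be named when called in all 6 libraries, in 3 of 3 against 0 of 3, when highest at their locus, or when over a member's start site. At Cdh2, Cdh4 and Cdh23 the highest regions by mean percentile, at 96.1, 54.0 and 91.4, were called in +dox replicate 3 alone. They are not given by position. Regions named beyond this rule were picked after their values were seen. They are those called in 1 or 2 libraries, the Cdh13 region called in 3 libraries, and regions inside Vsir and Psap. The members and gene lists were chosen with earlier results of these data known. Alternatives changed the flank, list length, treatment of Cdh23 exon peaks, percentile, motif and libraries used. Replicate numbers mark no shared batch in the labels, so same-numbered libraries were not taken as pairs in the main tests. Their deviations from the group means over 4837 regions correlated at 0.367, -0.00984 and 0.494. Differently numbered libraries were not correlated, so whether these values go with the replicate number was not tested. Values with same-numbered libraries as a block are given below. The software was SciPy 1.17.1, pandas 2.3.3 and NumPy 2.4.6 under Python 3.11.15.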

Additional observations from a re-analysis of the deposited data

How the results depend on the processing

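Of 156 repeats under an alternative, 123 kept the direction of the difference or the size of the count, and no p could pass the threshold with 3 against 3 libraries. Some of the 123 were fixed in advance, since pairing same-numbered libraries leaves every difference as it is. Changing the flank left the difference at the regions called in all 6 libraries at 5.57 points. For counts, 3 and 6 regions against 4 passed as the same size. Differences are +dox minus no dox, the tests are exact, and the causes of the changes were not tested. The difference in peaks at the 8 loci ranged from 1.83 to 26.8 when single libraries were left out, became 0 in lists of equal length, in peaks and per 1000 peaks, and turned to -10.0 without +dox replicate 3 and with no peak kept apart, a setting added after the data were seen. Per 1000 peaks it ranged from -0.0289 (without no dox replicate 2) to 0.231 and was -0.889 with no peak kept apart. The median percentile ranged from -7.03 to 1.90 over left-out libraries and turned to 0.480 with gene bodies only, 9.01 with equal lists, 0.697 with exon peaks kept apart in no dox replicate 2 only, 2.40 without Cdh23 and 2.52 with replicates 1 and 2 only. It kept its sign at -12.7 with no peak kept apart and -12.1 by total signal. At the regions called in all 6 libraries the difference ranged from -5.53 to 9.83 over left-out libraries, and was -6.15 with replicates 1 and 2 only and -0.137 among shared regions alone, also added later. Equal lists are not counted among the 156 for this measure. The mean percentiles there were 80.5, 85.8 and 92.1 without dox and 75.5, 81.1 and 91.6 with dox, so the +dox mean was lower. The CAGCTG share ranged from -2.85 to 6.12, and was -2.11 with gene bodies only, -4.78 with 50 kb flanks, -1.93 with exon peaks kept apart in no dox replicate 2 only and -11.0 without Cdh23. It was 12.5 with equal lists, 8.59 with no peak kept apart and 8.004 with replicates 1 and 2 only. It was 0 for CANNTG, which all cadherin peaks held. Regions found with dox alone numbered 2 to 6 over left-out libraries, 1 with equal lists or when no library of the other condition could have a peak, and 10 with exon peaks kept apart in no dox replicate 2 only. Regions found without dox alone numbered 0 over left-out libraries, 1 with equal lists and 6 with no peak kept apart. Over left-out libraries, the difference in peaks ranged from 0.500 to 1 at Cdh15, 0.833 to 3.83 at Cdh2, 0 to 2.5 at Cdh4, 0 to 1 at Cdh5, -1 to -0.500 at Cdh6, 0 to 0.500 at Cdh11, -0.167 to 7.33 at Cdh13 and 1.17 to 12.2 at Cdh23. The lowest values at Cdh2, Cdh4, Cdh5, Cdh11, Cdh13 and Cdh23 were those without +dox replicate 3.

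With same-numbered libraries as a replicate block, the difference of 18.3 peaks had an exact sign-flip p of 0.25, the smallest that 3 pairs allow. Such a block leaves every mean difference as it is and can change the p-value only. The median percentile under that block differed by -1.83 points. The peaks at Cdh5, Cdh6 and Cdh11 had maxima of 8 to 14 alignments. What part depth had in these calls was not tested.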
